A study of Mus musculus with 19 samples.

Results

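Interferon response genes were followed through hematopoietic stem and progenitor cells in which the long noncoding RNA Spehd was targeted. The 34 genes were a list of well known interferon-induced genes, chosen by name with earlier results of these data known, and all 34 were found among the 54352 genes counted. RNA was sequenced from sorted LSK cells (lineage-negative, Sca-1+, c-Kit+, a population that holds the stem cells) and CMPs (common myeloid progenitors). The cells derived from E-SLAM stem cells of C57BL6J mice, which were transduced with a vector that held a doxycycline-inducible shRNA with zsGreen and the transactivator rtTA under the SFFV promoter, and were transplanted without competitor cells into sublethally irradiated C57BL/6-CD45.1; cKit-w41 recipients. After 10 weeks all animals, the controls included, received doxycycline food for 6 days, and zsGreen+ cells were sorted, so each library is from cells that carried an shRNA.

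The 19 libraries fell into 6 groups. CMPs gave 4 libraries with the control shRNA against Renilla luciferase, 3 with sh10 and 2 with sh20, both of them shRNAs against Spehd. LSK cells gave 4 Renilla, 3 sh10 and 3 sh20 libraries. The labels do not say whether libraries of a group came from separate animals, so p-values measure the spread between these libraries, which may in part be technical. The level of Spehd itself was not analysed here, since no counted gene was matched to it, and the depth of knockdown is therefore unknown. Libraries held 3647318 to 5965155 counts on genes, of which 6569 to 13036 fell on the 34 genes.

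Type I interferons bind the receptor of Ifnar1 and Ifnar2, and the kinases Jak1 and Tyk2 then signal to the complex ISGF3, of which Stat2 and Irf9 are parts. ISGF3 binds the interferon-stimulated response element (ISRE) in promoters, while type II interferon acts on the GAS element. The genes so induced encode sensors of foreign RNA and DNA, enzymes that block translation or degrade RNA, membrane proteins that hinder viral entry and release, the ubiquitin-like modifier Isg15 with its enzymes, and factors such as Irf7 that amplify the response. Stem cells are known for a basal level of many of these genes without infection, and interferon can drive quiescent stem cells into cycle.

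Promoter windows of 300 bases, from 250 before to 50 after the start of transcription, were available from RefSeq on GRCm38.p6 for 26 of the 34 genes. The ISRE core GAAANNGAA, searched on both strands, was found in 13 of the 26 windows (50%) and in 2317 of 27025 gene windows (8.57%). The palindromic GAS letters TTCNNNGAA were found in 7 of the 26 (26.9%) and in 8.47% of all genes. The windows below belong to genes on which the comparisons turned, and ISRE core matches are in capitals. Oas3 (chr5:120777610-120777909, minus strand) held overlapping matches that began 75 and 69 bases before the start. Ifi44 (chr3:151749861-151750160, minus strand) held 1 match that began 3 bases before the start, and Ifitm3 (chr7:141010695-141010994, minus strand) held 2 matches after it. Irf7 (chr7:141266375-141266674, minus strand) and Oasl2 (chr5:114896684-114896983, plus strand) held none, which says only that these letters do not occur in these windows.
Oas3: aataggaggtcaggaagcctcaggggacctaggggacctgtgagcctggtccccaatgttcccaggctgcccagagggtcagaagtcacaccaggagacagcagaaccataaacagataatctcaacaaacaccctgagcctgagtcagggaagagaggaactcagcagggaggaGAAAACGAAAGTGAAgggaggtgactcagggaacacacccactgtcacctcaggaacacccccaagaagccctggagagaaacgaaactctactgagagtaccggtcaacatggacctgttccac
Ifi44: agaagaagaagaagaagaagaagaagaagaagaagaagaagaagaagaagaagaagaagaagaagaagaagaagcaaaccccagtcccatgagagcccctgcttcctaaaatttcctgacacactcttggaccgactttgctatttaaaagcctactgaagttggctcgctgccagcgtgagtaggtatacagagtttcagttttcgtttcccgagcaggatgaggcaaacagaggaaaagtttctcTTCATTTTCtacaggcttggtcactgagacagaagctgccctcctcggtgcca
Ifitm3: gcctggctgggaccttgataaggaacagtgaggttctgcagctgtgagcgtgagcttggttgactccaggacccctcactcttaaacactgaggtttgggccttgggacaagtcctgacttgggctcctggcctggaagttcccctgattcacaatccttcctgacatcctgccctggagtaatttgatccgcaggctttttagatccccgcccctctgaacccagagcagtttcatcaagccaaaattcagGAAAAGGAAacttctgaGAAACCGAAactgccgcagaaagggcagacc
Irf7: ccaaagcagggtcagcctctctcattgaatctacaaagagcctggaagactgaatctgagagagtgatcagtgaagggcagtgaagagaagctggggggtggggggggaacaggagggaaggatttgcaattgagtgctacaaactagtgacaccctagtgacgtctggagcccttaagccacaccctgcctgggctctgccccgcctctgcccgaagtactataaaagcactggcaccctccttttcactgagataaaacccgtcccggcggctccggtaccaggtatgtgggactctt
Oasl2: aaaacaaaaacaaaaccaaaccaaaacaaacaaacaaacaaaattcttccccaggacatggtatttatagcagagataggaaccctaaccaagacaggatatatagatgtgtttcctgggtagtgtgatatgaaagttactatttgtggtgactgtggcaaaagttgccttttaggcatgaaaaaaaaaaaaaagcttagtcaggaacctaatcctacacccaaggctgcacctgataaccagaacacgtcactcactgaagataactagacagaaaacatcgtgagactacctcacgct

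Nearly all of the 34 genes were detected. The mean was at least 10 counts per library for 33 of them, and 28 had at least 10 counts in every library. Per kilobase of exon, the levels over all 19 libraries were highest for Ifitm3 (123 CPM per kb), which restricts viral fusion, Bst2 (74.3), which tethers virions, and Ifi35 (57.7). They were lowest for Mx1 (0.527) and Mx2 (0.571), antiviral GTPases, and for Ifit3 (1.41), which binds foreign RNA together with Ifit1. Mx2 is annotated as a polymorphic pseudogene. Ifit, Oas and Mx genes have close copies, and reads that fit several copies equally well could be lost or split.

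The summed level of the 34 genes was higher in LSK cells than in CMPs for each shRNA. In CMPs it was 1799.6, 1760.2, 1732 and 1739 CPM (counts scaled to a common library size with edgeR's TMM factors) in Renilla replicates A to D, 1391, 1596 and 1554 in sh10 replicates A to C, and 2043 and 1764 in sh20 replicates B and C. In LSK cells it was 2280.0, 2159.8, 2301 and 2121 with Renilla, 2043, 1931 and 2141 with sh10 replicates A to C, and 2429.9, 2768 and 2395 with sh20 replicates A to C. Every LSK library of an shRNA thus lay above every CMP library of that shRNA. Within both cell types the sh10 group had the lowest mean, 1514 ± 109 in CMPs and 2038 ± 105 among LSK libraries (SD, n = 3), although in LSK cells its range overlapped that of Renilla. The sum is a description, since the abundant Sp100, Irf9, Irf1 and Dtx3l weigh most in it.

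**Figure D1:**
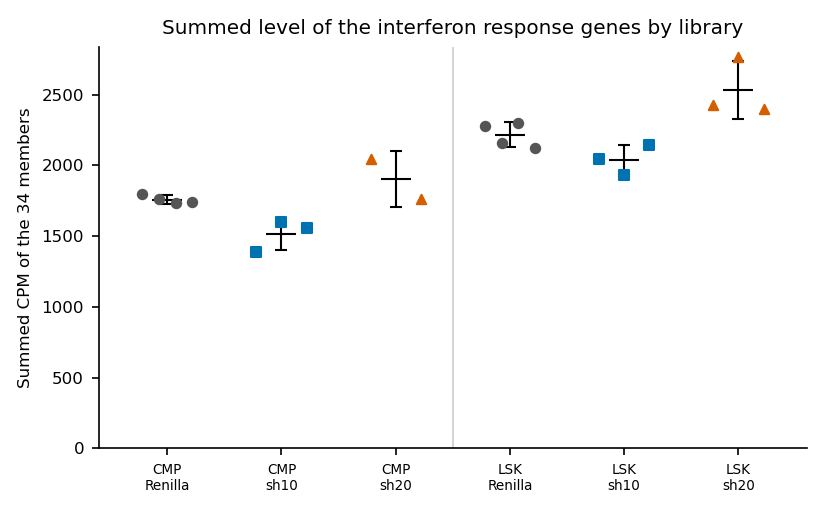
Summed CPM of the 34 interferon response genes (y axis, linear) in each of the 19 libraries (points), by cell type and shRNA (x axis), with the group mean and SD as bars. LSK libraries lie above the CMP libraries of the same shRNA, and CMP sh10 libraries lie lowest, from 1391 to 1596.

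Some libraries stood apart. LSK sh10 replicate B had 55.6% of its counts on genes of at least 4 kb of exon against 59.2% to 65.3% in the others, and its members of over 5000 exonic bases deviated from the group mean by a median of -0.63 (log2). It held 79 counts of Samd9l where the other LSK sh10 libraries held 711 and 689. CMP sh20 replicate B had the fewest genes detected (17174), with 16 counts of Parp14 beside 671 of Oasl2. It also held only 4 counts of Oas2, but the CMP Renilla libraries held 1 to 52 counts of that gene. Of the members named below, those whose edgeR call was lost without CMP sh20 B were Oas3, Oasl2 and Usp18 between CMP hairpins, Oas3 between sh20 and Renilla, and Mx1 and Rsad2 between CMPs and LSK cells with sh20, and those lost without LSK sh10 B were Ifitm1, Oas1a and Zbp1 between CMPs and LSK cells with sh10. As to the labels, the gate gene Ly6a (Sca-1, itself interferon-inducible and no finding here) had mean levels of 3.04 to 5.80 CPM in CMP groups and 50.4 to 66.1 in LSK groups, and the stem cell gene Procr 3.32 to 8.28 against 56.1 to 89.1. The granule protein genes Mpo, Elane, Prtn3 and Ctsg, which mark myeloid progenitors, were all called lower in the CMP than in the LSK libraries with Renilla, as were Cd34 and Fcgr3.

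CMPs had lower levels of many interferon response genes than LSK cells, and this was the clearest difference of the list. With Renilla shRNA, 8 of the 34 genes were lower in CMPs and 2 were higher by edgeR's quasi-likelihood test at a Benjamini-Hochberg adjusted p under 0.05. Of all 15066 genes tested, 19.8% were called in this comparison and 8.73% were called lower. With sh10, 8 were lower and 1 higher (16.1% of all genes called, 8.58% lower), and with sh20, 8 were lower and none higher (14.6% called, 8.64% lower). Their median log2 fold change was -0.55, -0.59 and -0.53 for the 3 shRNAs, beside -0.02, 0.01 and -0.02 over all genes. These 3 comparisons share no library, although they share 1 estimate of the spread. The fitted change was negative in all 3 for 24 of the 34 genes (70.6%) and for 28.4% of all genes. Mx1, Mx2 and Ifit3, which did not pass the filter on low counts among CMPs alone, entered these fits through LSK libraries. Over the other 31 members, 8, 8 and 7 were called lower, the medians were -0.41, -0.57 and -0.50, and 22 were negative in all 3. Without both CMP sh20 B and LSK sh10 B, an alternative added after the data were seen, 16, 13 and 13 members were called, where the single CMP sh20 library left is assumed to vary like the other groups, and without LSK sh10 B alone 14 with sh20. The shares of all genes called rose as well with Renilla and sh10, to 28.2% and 17.7%, and were 14.2% with sh20, and 20.6% without LSK sh10 B alone. In bulk RNA, fewer cells with high levels and less RNA per cell cannot be told apart.

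Ifi44, Rtp4 and Ifitm1 were called lower in CMPs with every shRNA, which are 8.82% of the 34 genes, as were 3.07% of all 15066 genes. Rtp4 (ENSMUSG00000033355.6, chr16:23520291-23614222 on the plus strand of GRCm38), a chaperone of receptors that also binds viral RNA, had 40.8, 34.3, 27.7 and 42.2 CPM in CMP Renilla replicates A to D, 15.9, 23.4 and 19.5 in sh10 and 35.5 and 31.6 in sh20. In LSK cells it had 83.8, 68.7, 73.4 and 77.8 with Renilla, 68.5, 87 and 57.1 with sh10 and 86.2, 81.1 and 91.7 with sh20. The highest CMP library lay below the lowest LSK library. The log2 fold change was -1.09 with Renilla (SE 0.16, adjusted p = 0.000206), -1.85 with sh10 (adjusted p = 8.56e-06) and -1.38 with sh20 (adjusted p = 0.000381).

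Ifi44 (ENSMUSG00000028037.13, chr3:151730922-151749960 on the minus strand), an interferon-induced protein with reported antiviral activity, had 13.5, 9.66, 9.40 and 7.11 CPM in CMPs with Renilla, 6.14, 7.67 and 9.32 with sh10 and 15.3 and 3.55 with sh20. LSK cells had 42, 27.4, 43.1 and 29.4 with Renilla, 34.9, 17.3 and 29.2 with sh10 and 49.3, 78.6 and 40.1 with sh20. All 9 CMP libraries lay below all 10 LSK libraries, of which the lowest was sh10 replicate B. The log2 fold changes were -1.86, -1.82 and -2.58, with adjusted p of 0.00246, 0.00823 and 0.00267. With sh20 the change was -3.97 without CMP sh20 B and -1.89 without CMP sh20 C, each from a single CMP library, and was called in both. Rsad2 (viperin), whose product yields a chain-terminating nucleotide, was the third member with no overlap between all CMP and all LSK libraries, at 1.03 to 15.9 CPM against 17.2 to 39.9. Such a separation, CMP lower, was seen for 2.87% of all genes.

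Ifitm1, a membrane protein that hinders viral entry, differed by less. It had 43.4 ± 7.30 CPM (mean ± SD, n = 4) in CMPs and 66.9 ± 6.80 (n = 4) in LSK cells with Renilla, and the log2 fold changes for the 3 shRNAs were -0.64, -0.61 and -0.88. The call with sh10 was lost without CMP sh10 replicate B or C or without LSK sh10 replicate B, with an adjusted p of at most 0.112 over the alternatives. That call was also lost without the filter on low counts.

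Irf1, Oasl2, Xaf1 and Zbp1 were called lower in 2 of the 3 comparisons (11.8% of the members, 3.86% of all genes), and 7 members in 1 of them (20.6%, and 9.05% of all genes). Oasl2, an oligoadenylate synthetase-like protein (ENSMUSG00000029561.17, chr5:114896936-114912234 on the plus strand), had 60.5, 39.6, 41.6 and 59.3 CPM in CMPs with Renilla and 129, 109.5, 128 and 112 in LSK cells. With sh10 it had 27.5, 34.5 and 37.5 against 94.7, 115 and 105. The groups did not overlap for these shRNAs, and the log2 fold changes were -1.27 and -1.65 (adjusted p = 0.000245 and 0.000114). With sh20 the CMP values of 116 and 65.2 overlapped the LSK values of 106, 167 and 134 (log2 fold change -0.61, adjusted p = 0.109). The call with Renilla and that with sh10 held in every alternative.

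Irf1, a factor induced by both interferon types, had 108, 109, 95.8 and 111 CPM in CMPs with Renilla and 145, 202, 162 and 176 in LSK cells. With sh10 it had 69, 67.4 and 89.9 against 185, 215 and 184. No CMP library of these groups reached an LSK library, and Irf1 differed by -0.71 and -1.36 (log2, adjusted p = 0.00193 and 3.13e-05). With sh20 the change was -0.53 (adjusted p = 0.0569). Xaf1, a pro-apoptotic interferon target, differed by -0.54 with Renilla (adjusted p = 0.0301) and -1.06 with sh10 (adjusted p = 0.00129). The smaller of these was lost on leaving out any 1 of CMP sh10 A or B, CMP Renilla A, B, C or D, LSK sh10 A, or LSK Renilla A or D (adjusted p over all alternatives 0.0086 to 0.208). That call was also lost with the replicate letter as a block (adjusted p = 0.0561) and without the filter on low counts (adjusted p = 0.208).

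Zbp1, a sensor of Z-form nucleic acids that can trigger cell death, had 3.81, 4.04 and 5.80 CPM in CMPs against 14.2, 26.3 and 15.9 in LSK cells with sh10, and 0.690 and 7.11 against 27.6, 36.7 and 20.2 with sh20. Both pairs of groups were apart (-2.03 and -2.87, adjusted p = 0.0168 and 0.00734), while with Renilla the difference was -0.97 (adjusted p = 0.148). With sh20 it was -1.99 without CMP sh20 B and -5.32 without CMP sh20 C, and was called in both. The sh10 call was lost without CMP sh10 A or B or without LSK sh10 B (adjusted p at most 0.0775).

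The remaining lower calls were each in 1 comparison. With Renilla, Oas3 and Ifit1 were lower in CMPs, with log2 fold changes of -1.11 and -1.19 (adjusted p = 0.00618 and 0.036). Oas3 makes oligoadenylate, which activates the RNA-cutting enzyme RNase L, and Ifit1 binds RNA that lacks cap methylation. The Ifit1 call was lost without CMP Renilla A, B or C or without any 1 of the 4 LSK Renilla libraries (adjusted p at most 0.0977). That call was also lost with log2 total counts as a covariate. With sh10, Oas1a, another oligoadenylate synthetase, was lower, at 18.7 ± 3.30 CPM against 37.7 ± 12.6 in LSK cells (SD, n = 3 each, adjusted p = 0.014), but was not called without CMP sh10 A or LSK sh10 B.

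With sh20, Oas2 had 4 and 17 counts in the CMP libraries and 177, 161 and 180 in the LSK libraries, a log2 fold change of -4.21 (adjusted p = 0.00468), which was -3.50 without CMP sh20 B (adjusted p = 0.0494) and -5.60 without CMP sh20 C. Rsad2 had 6 and 61 counts against 111, 186 and 147 (log2 fold change -2.34, adjusted p = 0.0141), and without CMP sh20 B it was -1.45 with an adjusted p of 0.0537, and -4.82 without CMP sh20 C. Both genes were thus lower in CMP sh20 replicate B than in replicate C. In the other CMP groups Oas2 had 1 to 52 counts with Renilla and 10 to 35 with sh10. Mx1 had 1 and 0 counts in CMPs and 45, 21 and 2 in LSK cells, too few for a fold change to be given, and its call (adjusted p = 0.0403) was lost in 11 of 26 alternatives. Irf9, the DNA-binding part of ISGF3, fell by 0.44 (adjusted p = 0.0433), and its call was kept in 11 of 27 alternatives. Without CMP sh20 B it was -0.60 and still called, and without CMP sh20 C it was -0.29 (adjusted p = 0.282).

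Isg20 and Oasl1 went the other way. Isg20 (ENSMUSG00000039236.18, chr7:78913424-78920396 on the plus strand), an exonuclease that degrades single-stranded RNA, had 93.3, 98.8, 85.3 and 94.9 CPM in CMPs and 33.1, 37.5, 40.1 and 43.2 in LSK cells with Renilla. With sh10 it had 72.8, 77.5 and 52.2 against 38, 47.6 and 28.7, and with sh20 109 and 88.3 against 61, 73.8 and 58.2. CMPs were higher without overlap for each shRNA, by 1.26 (adjusted p = 4.63e-05), 0.83 (adjusted p = 0.00472) and 0.60 (adjusted p = 0.0517), the last not past the threshold. It was the only member with a positive change in all 3 comparisons. Oasl1, which restrains Irf7 translation, had 36.3, 49.8, 31.2 and 35.5 CPM in CMPs and 20.5, 15.8, 15.6 and 7.09 in LSK cells with Renilla (log2 fold change 1.35, SE 0.46, adjusted p = 0.0464), and this call held in 10 of 27 alternatives (adjusted p 0.00107 to 0.143).

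**Figure D2:**
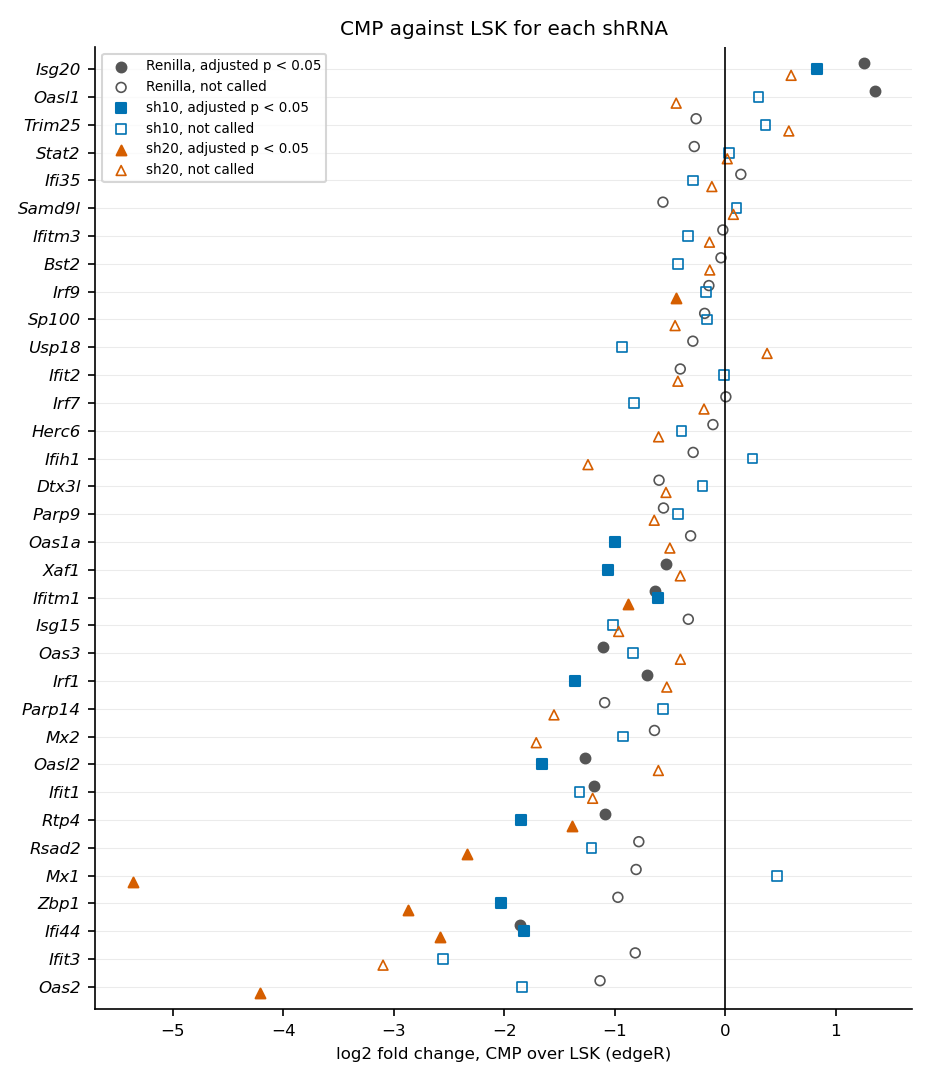
Log2 fold change of each of the 34 genes (y axis, ordered by their mean) between CMPs and LSK cells (x axis, edgeR) for Renilla (circles), sh10 (squares) and sh20 (triangles), filled where the adjusted p was under 0.05. Most symbols lie left of 0, Ifi44, Rtp4 and Ifitm1 are filled 3 times, and Isg20 lies right of 0 for each shRNA. The far left sh20 symbol of Mx1 rests on 1 and 0 counts in CMPs.

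Marker genes of other cell types moved with this comparison, although the marrow had been depleted of lineage-positive cells and gated before these progenitors were collected, which would remove most mature cells. Of 7 stem cell markers, 5, 5 and 4 were called lower in CMPs with Renilla, sh10 and sh20. Of 6 markers of T and NK cells, 4 were called higher in CMPs with Renilla (summed 232 to 293 CPM against 134 to 165), Cd3e, Cd3d, Klrb1c and Ccl5, and 2 with sh20. With sh10 edgeR called none (111 to 134 against 123 to 169 CPM, 0 at an unadjusted p under 0.05 and 0 by DESeq2). Of 7 neutrophil markers, 6 were called lower in CMPs with Renilla, at 1.93 to 10.3 CPM against 4.34 to 305, a range set by LSK Renilla B and D. With sh10, 4 were called lower, at 2.07 to 12.1 CPM against 63.7 to 295. With sh20, where the sums were 4.83 to 10.3 and 6.43 to 12.02, edgeR called none (0 at an unadjusted p under 0.05, 0 by DESeq2). Of 5 red cell markers, 4, 1 and 1 were called higher in CMPs, with sums of 119 to 132, 73.1 to 124 and 194 to 207 CPM against 6.21 to 13.02, 9.37 to 38.7 and 8.45 to 86.7 in LSK cells. Of 7 monocyte markers 4, 1 and 1 were called lower with the 3 shRNAs. B cell markers summed to 29.7 to 66.2 CPM in CMPs and 61.6 to 69.0 in LSK cells with Renilla. With sh10 the sums were 25.4 to 39.5 and 62.96 to 96.8, and with sh20 73.6 to 202 and 79.4 to 89.8. The 5 markers of plasmacytoid dendritic cells, which are the main source of type I interferon, summed to 125 to 162 CPM in CMPs and 130 to 180.4 in LSK cells with Renilla, most of it Tcf4. With sh10 they summed to 144 to 161 in CMPs and 178 to 188 in LSK cells. With sh20 the sums were 72.9 and 118 in CMPs and 179.5 to 193 in LSK cells. The sums were thus lower in CMPs without overlap with either hairpin, and Ccr9 with sh10 and Tcf4 with sh20 were called lower. Cox6a2 ran opposite to the sum with sh20, at 2.84 and 9.48 CPM in CMPs and 0.919 to 1.72 in LSK cells, without overlap. Mean Siglech with sh10 was 3.71 CPM in CMPs and 2.38 in LSK cells, but these ranges overlapped. Tcf4 again made up most of the sum of these markers. Of them Siglech had at most 28 counts and Klk1 at most 1 in any library, while Ccr9, which other lymphoid cells also express, had 15.1 ± 8.19 CPM in CMPs with Renilla and a mean of 0.797 in LSK cells with Renilla (SD, n = 4 each), and in CMPs it was called lower with sh10 and with sh20 than with Renilla. The part of these marker lists in the results was not tested.

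The rest of the pathway also held more genes lower than higher in CMPs. Of 64 further genes of the interferon pathway, 53 were tested, and 16, 14 and 17 of them were called lower and 2, 2 and 1 higher with Renilla, sh10 and sh20, with medians of -0.35, -0.29 and -0.42. Over all genes, 8.73%, 8.58% and 8.64% were called lower and 11.04%, 7.51% and 5.94% higher. No interferon gene passed the filter on low counts (0 of 7 ligands). Ifnar2, a chain of the type I receptor, was lower for each shRNA, with log2 fold changes of -0.46, -0.45 and -0.68. Ifngr1, the ligand-binding chain of the type II receptor, was higher in CMPs by 0.64 with Renilla and 0.61 with sh10 (adjusted p = 3.96e-06 and 3.13e-05). The factors Irf2, Irf5 and Stat3 were called lower for each shRNA, as were Ddx58 (the RNA sensor RIG-I), Tmem173 (the adaptor STING) and the kinase Ikbke. Tmem173, for example, had 69.6 ± 16.4 CPM in CMPs and 140.0 ± 6.77 in LSK cells with Renilla (n = 4 each, log2 fold change -1.03, SE 0.20, adjusted p = 0.00182).

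Against Renilla shRNA, the hairpins moved few of the genes. With both Spehd hairpins as 1 group, no member was called in CMPs (0.116% of all 12912 genes tested were called) or in LSK cells (0% of 13441 were called) by edgeR. At an unadjusted p under 0.05 there were 2 of 31 in CMPs, Trim25 and Ifitm3, and 0 in LSK cells, where 16.6% and 3.66% of all genes were, and DESeq2 called 1 (Trim25) and 0, with 9.74% and 0% of the genes it tested. The medians were -0.16 and 0.09, beside 0.02 and 0.00 over all genes. Trim25, the ubiquitin ligase that activates RIG-I, had 60.5, 63.8, 64.6 and 39.5 CPM with Renilla, 73.5, 83.6 and 98.3 with sh10 and 81.2 and 94.9 with sh20, so both hairpins lay above all Renilla libraries (log2 fold change 0.59, SE 0.16, adjusted p = 0.106). Such a separation, both hairpins higher, was seen for 2.97% of all genes tested.

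Taken separately in CMPs, few members were called with either hairpin. With sh10, 25 of the 31 members tested had a negative fitted change (51.7% of all genes did), with a median of -0.36 (-0.01 over all 13824 genes tested), and 2 were called lower by edgeR, Irf7 and Ifitm3, where 1.97% of all genes were called. The CPM values of 10 members lay below all Renilla values without overlap, as did those of 13.1% of all genes. At an unadjusted p under 0.05 there were 12 members, and 21.2% of all genes. With sh20, 1 member was called, Oas3, which was higher (6.17% of all genes called), 16 of 31 were positive and the median was 0.02 beside 0.01. That single call is a smaller share than among all genes. Mx1, Mx2 and Ifit3 did not pass the filter on low counts in these fits.

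Irf7 (ENSMUSG00000025498.15, chr7:141262706-141266481 on the minus strand), the factor that amplifies type I interferon production, had 79.8, 63.3, 72.1 and 73.8 CPM with Renilla, 35.1, 48.7 and 32.7 with sh10 and 79.7 and 90.8 with sh20. All sh10 libraries were below all Renilla libraries, and sh20 libraries lay at the upper end of the Renilla range or above it. The log2 fold change was -0.90 with sh10 (SE 0.16, adjusted p = 0.0335) and 0.24 with sh20 (adjusted p = 0.452). Irf7 overlaps Phrf1 on the opposite strand, which had a mean of 964 counts, so reads of the 2 genes can be told apart only where strand was kept.

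Ifitm3 (ENSMUSG00000025492.6, chr7:141009586-141010770 on the minus strand) had 89.9, 79, 98.9 and 95.8 CPM with Renilla, 64.4, 59.4 and 65.2 with sh10 and 81.9 and 79.1 with sh20. The sh10 libraries were again lowest and did not overlap Renilla (log2 fold change -0.53, SE 0.11, adjusted p = 0.0475), while sh20 lay within the Renilla range (log2 fold change -0.18, adjusted p = 0.417). The other 8 genes without overlap were Rtp4, Xaf1, Ifi35, Isg20, Irf1, Sp100, Oasl2 and Zbp1, with log2 fold changes of -0.89, -0.68, -0.37, -0.46, -0.49, -0.29, -0.60 and -0.998. Their adjusted p ran from 0.062 to 0.421, and edgeR called none of them, while DESeq2 called Rtp4 and Xaf1.

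Oas3 (ENSMUSG00000032661.9, chr5:120753098-120777661 on the minus strand) had 19.6, 16.7, 22.1 and 17.9 CPM with Renilla, 17.8, 23.2 and 15.1 with sh10 and 51.2 and 32.5 with sh20. Both sh20 libraries lay above every other CMP library, and replicate B was higher than C (log2 fold change 1.13, SE 0.25, adjusted p = 0.0332). Parp9, a mono-ADP-ribosyltransferase partner of Dtx3l, and Oasl2 were next at 0.48 and 0.84 (adjusted p = 0.0693 and 0.0881). Ifih1 (the RNA sensor MDA5) was at -1.28 (adjusted p = 0.138), with 39 and 170 counts in the sh20 libraries against 163 to 231 with Renilla. Of the members, 0 were called without sh20 B and 11 without sh20 C, beside 5.7% and 21.9% of all genes, so the number called turned on which sh20 library was kept. Each of these fits had a single sh20 library, which is assumed to vary like the other CMP groups.

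**Figure D3:**
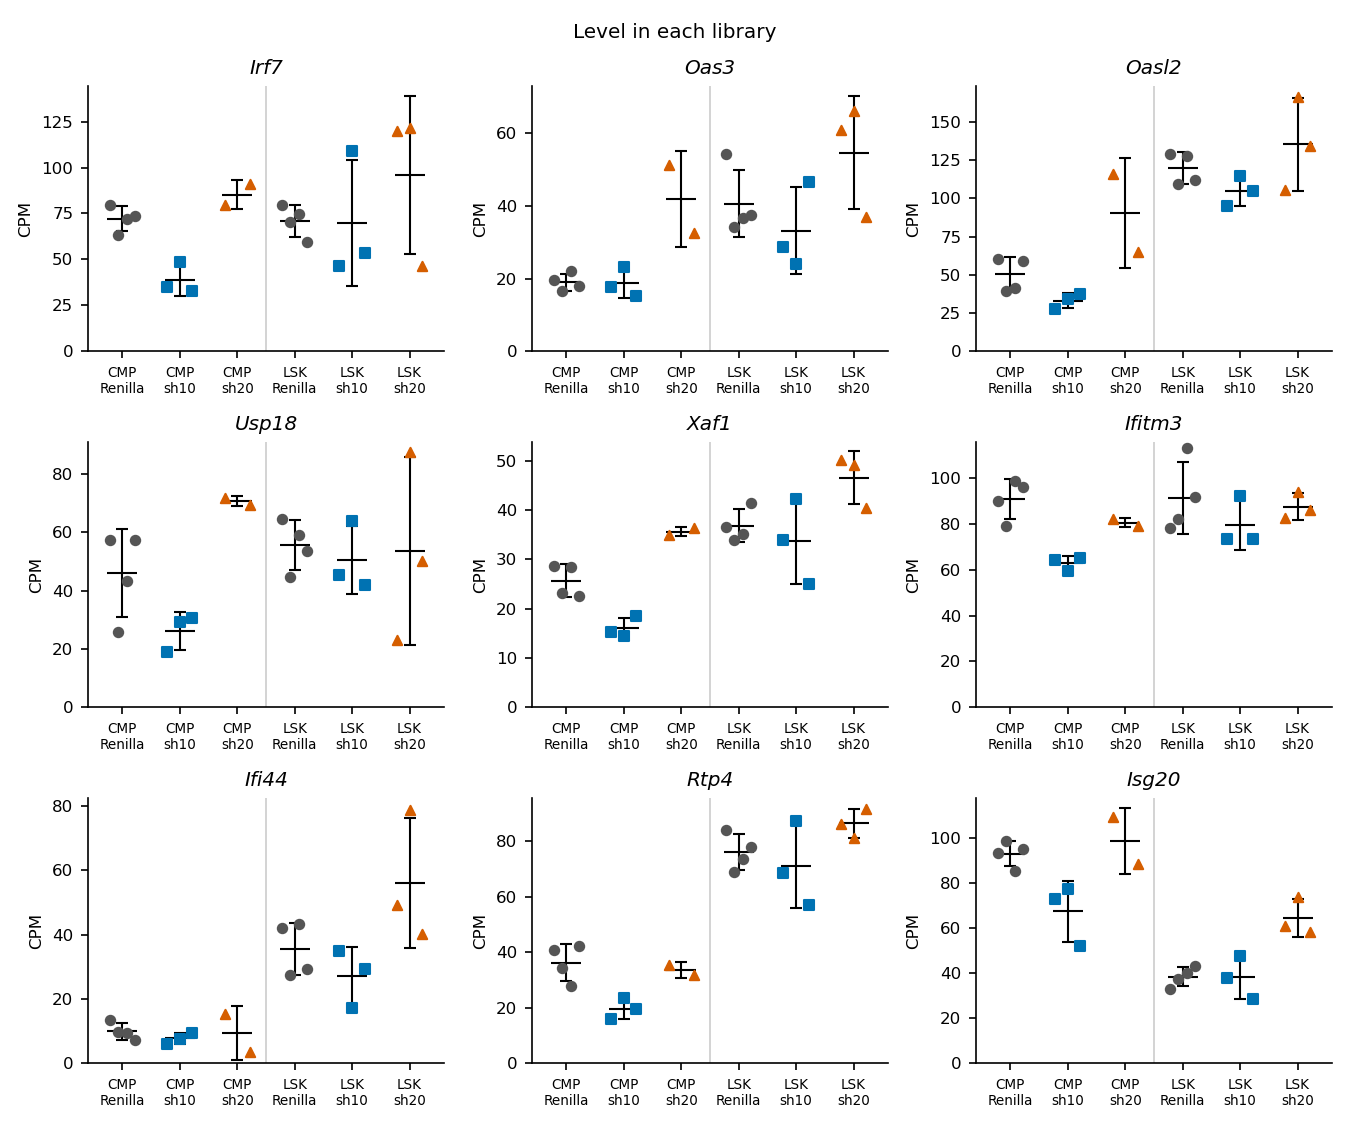
CPM (y axis, linear, from 0) of 9 members in each library (points), by cell type and shRNA (x axis), with group mean and SD as bars. Irf7, Usp18, Xaf1 and Ifitm3 are lowest in the CMP sh10 group and Oas3 is highest among CMPs with sh20. Rtp4 and Ifi44 are lower, and Isg20 higher, in CMPs than in LSK cells.

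The contrast between the hairpins in CMPs gave more calls than either against Renilla. Between sh20 and sh10, 5 members were called, all higher with sh20, where 6.41% of all genes were called, and the CPM of 13 of 31 members lay higher without overlap (19.7% of all genes). Irf7 differed by 1.13 on the log2 scale (adjusted p = 0.0136), Xaf1 by 1.14 (0.0214), Oasl2 by 1.44 (0.0236), Usp18 by 1.42 (0.0378) and Oas3 by 1.16 (0.0389). The median was 0.26, beside 0.00 over all genes. These values share the sh10 and sh20 libraries with the comparisons against Renilla.

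Usp18, the protease that removes Isg15 and dampens signalling at Ifnar2, had 57.5, 25.8, 43.2 and 57.4 CPM with Renilla, 18.8, 29.3 and 30.6 with sh10 and 71.9 and 69.5 with sh20. Xaf1 had 28.6, 23.2, 28.4 and 22.6 CPM with Renilla, 15.2, 14.5 and 18.4 with sh10, and 35 and 36.3 with sh20. For both genes sh20 was highest and the 2 hairpins did not overlap, though Usp18 in Renilla replicate B lay among the sh10 libraries. Isg15 itself, whose sh10 values of 6.99, 10.5 and 5.38 CPM overlapped the 15.6, 17.2, 10.6 and 9.07 of Renilla, was not called by edgeR.

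Of the members with the most counts in their role groups, Oasl2 and Ifitm3 are given above and the other 4, Irf9, Sp100, Dtx3l and Ifit2, were called between shRNAs in neither cell type by edgeR. Irf9 had 162, 153, 155 and 132 CPM in CMP Renilla libraries, 126, 147 and 123 with sh10 and 154 and 123 with sh20. In LSK cells Irf9 had 185, 139.9, 176 and 156 with Renilla, 129, 165 and 154 with sh10, and 192, 189 and 175 with sh20. Within each cell type both hairpins overlapped Renilla. Sp100, which builds nuclear bodies with Pml, had 206, 177, 188 and 198 CPM with Renilla, 139, 157 and 175 with sh10 and 207 and 164 with sh20 in CMPs. In LSK cells Sp100 had 237, 212, 200.1 and 214 with Renilla, 188, 122 and 214 with sh10, and 250.3, 278 and 221 with sh20. Sp100 was lowest in LSK sh10 replicate B, the library poor in long genes, and its CMP sh10 libraries lay just below those with Renilla. Dtx3l, a ubiquitin ligase, had 98.7, 99.8, 84.6 and 83.3 CPM with Renilla, 83.4, 116 and 116 with sh10 and 148 and 53 with sh20 in CMPs. In LSK cells Dtx3l had 147, 143, 153 and 106 with Renilla, 138, 66.7 and 155 with sh10, and 97.1, 184 and 150.5 with sh20. CMP sh20 libraries lay on either side of the Renilla range. Ifit2, an RNA-binding protein, had 40.6, 58, 85.5 and 39 CPM with Renilla, 48.9, 51.9 and 59.6 with sh10 and 49.3 and 78.6 with sh20 in CMPs. In LSK cells Ifit2 had 61.4, 71.2, 72.6 and 86.8 with Renilla, 67.8, 15.9 and 75.7 with sh10, and 97.4, 65.5 and 91.5 with sh20. For Dtx3l and Ifit2 the Renilla and sh10 groups overlapped within each cell type, and LSK sh10 replicate B was the lowest LSK library.

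Ifi35 and Parp9 were also followed in each library. Ifi35, which binds the factor Nmi, had 106, 97.8, 106 and 114 CPM with Renilla, 82.6, 88 and 76 with sh10 and 115 and 90.5 with sh20 in CMPs. In LSK cells Ifi35 had 91.6, 86.8, 107 and 95.2 with Renilla, 85.5, 149 and 70.6 with sh10, and 93.3, 124 and 113 with sh20. The CMP sh10 libraries lay below all Renilla libraries, and the LSK groups overlapped. Parp9 had 69, 73.9, 70.0 and 76.7 CPM with Renilla, 64.2, 70.1 and 81.8 with sh10 and 111 and 91.5 with sh20 in CMPs. In LSK cells Parp9 had 98.5, 120.4, 114 and 88.1 with Renilla, 117, 54.8 and 116 with sh10, and 147, 162 and 158 with sh20. Parp9 was thus highest with sh20 in both cell types, without overlap with Renilla, but was not called by edgeR (adjusted p = 0.0693 in CMPs and 0.598 in LSK cells). Of all genes, 12.8% in CMPs and 7.08% in LSK cells lay higher with sh20 than with Renilla without overlap. The other members that edgeR called in no comparison were Stat2, Ifit3, Isg15, Ifih1, Parp14, Bst2, Herc6, Samd9l, Mx2 and Trim25, besides Ifit2, Ifi35, Parp9, Dtx3l and Sp100. Of these, DESeq2 called Trim25, Ifih1 and Parp9 in comparisons within CMPs, Parp9 also between CMPs and LSK cells with Renilla, and Ifit3 with sh20. With Renilla their differences between CMPs and LSK cells ran from -1.09 for Parp14, a mono-ADP-ribosyltransferase, to 0.14 for Ifi35. Herc6, the ligase that attaches Isg15 in mice, and Bst2 were at -0.11 and -0.04.

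The hairpin calls in CMPs were not stable. All 8 calls, 2 with sh10, 1 with sh20 and 5 between hairpins, were lost with the replicate letter as a block and with log2 total counts as a covariate, and all 5 CMP Spehd libraries had more counts (4918631 to 5965155) than the 4 CMP Renilla libraries (3857980 to 4314959), so depth and knockdown cannot be told apart in that fit. Calls over all genes were lost as well. With the block 0.0362%, 0% and 0.203% of all genes were called for sh10, sh20 and between the hairpins, and with the covariate 0%. The changes themselves stayed close with the block, and with the covariate Irf7 was at -0.88 and Ifitm3 at -0.51 with sh10, Irf7 at 1.14, Xaf1 at 1.30, Oasl2 at 1.62 and Usp18 at 1.81 between the hairpins, while Oas3 went to 0.63 between the hairpins and to -0.16 with sh20 against Renilla. Both sh10 calls were lost without sh10 A, B or C or without Renilla A, C or D (adjusted p over the alternatives 6.37e-05 to 0.989 for Irf7 and 0.00175 to 0.989 for Ifitm3). Of all genes, 0.103%, 0.0659% and 0.066% were called without sh10 A, B and C. Without Renilla A, C and D 0.153%, 0.726% and 0.315% were called, all below the 1.97% with all libraries. Oas3 with sh20 was lost without sh20 B, sh10 A or C, or Renilla A, B or D. Where an sh10 or Renilla library was left out in these fits, 3.13% to 3.49% of all genes were called with sh20. Between the hairpins 0 members were called without sh10 A, 1 without sh10 B, 2 without sh10 C, 3 without sh20 B, 4 without any 1 Renilla library and 15 without sh20 C. In these fits 0.999%, 0.615%, 1.93%, 7.02%, 4.66% to 5.54% and 23.9% of all genes were called, so the counts without an sh10 library fell along with those of all genes. DESeq2 called 5, 5 and 10 members in the 3 comparisons, and 8.83%, 11.1% and 13.3% of all genes it gave an adjusted p.

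Markers of several cell types moved with the hairpins in the same libraries. Stem cell markers summed to 297 to 374 CPM with sh10 in CMPs, below the 458 to 507 with Renilla, and to 453 and 499.95 with sh20, although edgeR called none of the 6 tested in either comparison (3 and 0 at an unadjusted p under 0.05, 2 and 0 by DESeq2). Plasmacytoid dendritic cell markers summed to 72.9 and 118 CPM with sh20, below the 125 to 162 with Renilla, and 1 of 4 tested (Ccr9) was called lower with each hairpin. Most of the sum was Tcf4. Cox6a2 went the other way, with means of 5.88 CPM with sh10 and 6.16 with sh20 against 2.03 with Renilla. Siglech had 3.71 ± 1.96 CPM with sh10 and 0.605 ± 0.726 with Renilla (n = 3 and 4, adjusted p = 0.179), at no more than 28 counts. Red cell markers summed to 194 and 207 CPM with sh20 against 119 to 132 with Renilla, and 1 of 5 was called higher. Of 6 T and NK cell markers, 4 were called lower with sh10 than with Renilla in CMPs (summed 111 to 134 CPM against 232 to 293), 1 (Klrb1c) was lower with sh20 than with Renilla, and 2 were called higher with sh20 than with sh10 (141 and 225 with sh20). Cd3e, a chain of the T cell receptor complex, had 12.4 ± 3.44 CPM with Renilla, 0.560 ± 0.532 with sh10 and 23.2 ± 15.7 with sh20 (n = 4, 3 and 2). Cd3d had the same order, and the other 4 markers, Klrb1c, Gzma, Ccl5 and Nkg7, had lower means with both hairpins than with Renilla. B cell markers summed to 202 CPM in sh20 replicate C and 25.4 to 73.6 in the other CMP libraries. Among monocyte markers, 2 of 7 were called higher with sh10 and 1 with sh20. Cd34, a gate gene, was called lower with sh20. Their part in the members' differences was not tested.

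Elsewhere in the pathway, 2 of 53 genes were higher and 3 lower with sh10 in CMPs, where 1.97% of all genes were called. Irf8, an interferon-regulated factor that drives monocyte and dendritic cell fate, rose from 83.8 ± 31.8 CPM with Renilla to 305 ± 33.5 with sh10 (log2 fold change 1.86, SE 0.25, adjusted p = 0.0158), a change opposite to that of Irf7. Traf3 rose by 0.61. Uba7 and Ube2l6, the activating and conjugating enzymes for Isg15, fell by 0.55 and 0.48 (adjusted p = 0.036 and 0.0463), and Ccl5, which is also a T and NK marker, fell by 2.45. With sh20, 4 of 53 were lower, Ifngr1, Ly6e, Lgals9 and Psme1, with changes of -0.35 to -0.44, and none was higher, a share near the 6.17% of all genes called. Between the hairpins Socs1, an inhibitor of Jak kinases, was higher with sh20 (log2 fold change 1.79, SE 0.34, adjusted p = 0.022), as were Ptpn2 and Uba7, while Ifnar2, Ifngr1 and Irf8 were lower. Of all genes, 6.41% were called between the hairpins. All 15 of these calls within CMPs were lost with the replicate letter as a block, and likewise in the fit with the depth covariate. With the block 0.0362%, 0% and 0.203% of all genes were called for sh10, sh20 and between the hairpins, and with the covariate 0%. The 5 with sh10 were also lost without sh10 A, B or C (0.103%, 0.0659% and 0.066% of all genes called). The 6 between the hairpins were lost without sh10 A or B (0.999% and 0.615% of all genes called).

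In LSK cells no member was called by edgeR with either hairpin or between them, and no gene at all (0% of 13828 tested in each of the 3 comparisons). With sh10, 26 of 34 were negative (median -0.12, -0.01 over all genes, and also -0.12 without LSK sh10 B), none had an unadjusted p under 0.05 and DESeq2 called 0. With sh20, 27 of 34 were positive (median 0.18, 0.01 over all genes), 4 had an unadjusted p under 0.05 (8.33% of all genes did) and DESeq2 called 2, Isg20 and Oas2 (1.16% of the genes it gave an adjusted p). Between sh20 and sh10, 30 of 34 were positive (median 0.27, 0.00 over all genes), 7 had an unadjusted p under 0.05 (9.17% of all genes), DESeq2 called 3 (1.47% of genes), and the CPM of 7 lay higher without overlap, as did 7.1% of all genes.

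In LSK cells the smallest p-values belonged to Oas2, Isg20 and Ifit1. Oas2 had 21.3, 14.4, 16.1 and 11.6 CPM with Renilla, 14.9, 15.7 and 16.6 with sh10 and 34.9, 34.6 and 33.1 with sh20 (log2 fold change 1.07, SE 0.23, adjusted p = 0.192 against Renilla). Isg20 had a change of 0.70 (adjusted p = 0.305) and Ifit1 of 0.67 (adjusted p = 0.441). The 3 sh20 libraries lay above every Renilla library for each of these genes, as they did for 7.08% of all genes, but none was called by edgeR. Irf7 in LSK cells spread widely, with 46.5, 109 and 53.4 CPM in sh10 and 120.1, 121 and 46.5 in sh20, and overlapped Renilla (79.6, 70.4, 74.5 and 59.3) for both hairpins. In LSK sh10 all 12 members of over 5000 exonic bases had a negative change (median -0.20), and replicate B was the library poor in long genes. Neutrophil markers summed to 63.7 to 295 CPM with sh10, 6.43 to 12.02 with sh20 and 4.34 to 305 with Renilla. Of the plasmacytoid dendritic cell markers, Siglech, Ccr9 and Cox6a2 were higher with sh10 than with Renilla without overlap, at no more than 42 counts. They had 2.12 to 2.59, 4.24 to 7.29 and 4.60 to 8.37 CPM against 0.207 to 1.09, 0.215 to 1.36 and 0.197 to 3.52. Tcf4 overlapped (163 to 177 against 126 to 175), and Klk1 was near 0. Of the stem cell markers, Procr had 76.2 to 101 CPM with sh20 and 45.9 to 66.4 with Renilla, Fgd5 30.3 to 45.6 and 18.1 to 22.5, and Hlf was lower with sh20 without overlap. Of these 7 genes edgeR called none, 5 had an unadjusted p under 0.05 and DESeq2 called 2. B cell markers summed to 79.4 to 89.8 CPM with sh20, above the 61.6 to 69.002 with Renilla, with 0 of 3 tested called by edgeR, 0 at an unadjusted p under 0.05 and 0 by DESeq2. The part of these markers was not tested.

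**Figure D4:**
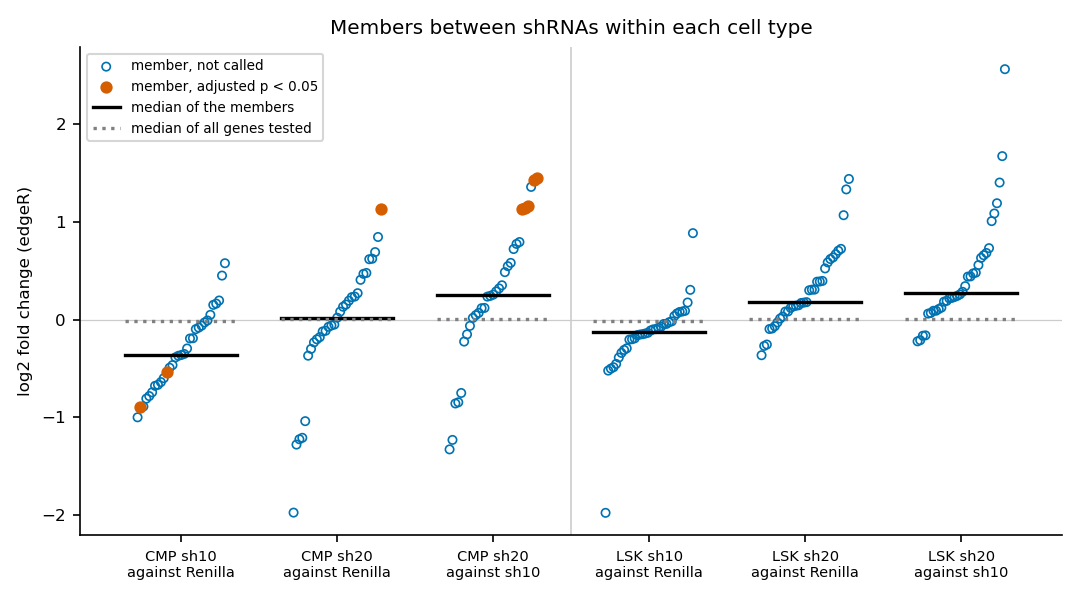
Log2 fold change (y axis, edgeR) of each member tested in 6 comparisons within CMPs and LSK cells (x axis), with filled points at an adjusted p under 0.05, a solid line at the median of the members and a dotted line at the median of all genes tested. Members lie mostly below 0 for CMP sh10 against Renilla (median -0.36) and mostly above it for LSK sh20 against sh10 (median 0.27).

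Whether a hairpin acted differently in the 2 cell types was tested directly. For sh10, 0 members were called for the difference of its effect between CMPs and LSK cells by edgeR (0.0199% of all 15066 genes were called), 2 had an unadjusted p under 0.05 (7.76% of all genes, a larger share) and DESeq2 called 0. These 2 were Irf1 at -0.65 and Rtp4 at -0.76 (adjusted p = 0.605 for each). For sh20, 0 members were called (0.584% of all genes), 8 had an unadjusted p under 0.05 (13.8% of all genes) and DESeq2 called 0. Oas2 had the smallest p, with a difference of -3.08 (adjusted p = 0.21), and Isg20 the next, at -0.66. The hairpin calls in CMPs are therefore not shown to differ from the effects in LSK cells.

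The comparisons of CMPs with LSK cells were also counted for 3 of the 6 role groups. In the groups not counted, Irf7, Stat2, Isg20, Ifi35 and Samd9l were not negative with every shRNA, and the other members were. Over all genes, 51.7%, 49.4% and 51.2% had a negative change with Renilla, sh10 and sh20. All 6 genes of the Isg15 system and ADP-ribosylation, Isg15, Usp18, Herc6, Parp9, Parp14 and Dtx3l, had a negative change with Renilla (median -0.45) and with sh10 (median -0.50), and 5 of 6 with sh20 (median -0.62), where Usp18 was positive. For these 6 edgeR made no call in any of the 3 comparisons, with 1, 2 and 3 at an unadjusted p under 0.05, and DESeq2 called 1, 0 and 0. Over all genes 32.9%, 29.97% and 29.3% had an unadjusted p under 0.05, and DESeq2 called 22.2%, 20.3% and 16.9% of those it tested. Of the 7 GTPases and membrane effectors, 7, 6 and 7 were negative with Renilla, sh10 and sh20, Mx1 being the positive one with sh10 at few counts, and 2, 2 and 4 were called lower. Without Mx1 and Mx2, which entered through the LSK libraries, 5, 5 and 5 of 5 were negative and 2, 2 and 3 were called lower. Of the 8 sensors and their cofactors, 7, 5 and 7 were negative, with 2, 3 and 2 called lower and 1, 0 and 0 higher, and with sh10 Ifih1, Oasl1 and Trim25 were the positive ones. Over all genes, 8.73%, 8.58% and 8.64% were called lower. Parp9 and Dtx3l overlap on opposite strands, so their counts are uncertain where strand was not kept, as are those of Ifi35 and Usp18, which overlap antisense or noncoding genes.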

How the data were processed

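RNA-seq libraries were made with the SMART-Seq v4 kit from sorted cells. As deposited, each file held the raw counts of 1 library per gene. To make these counts, the authors aligned to the mm10 genome (STAR), dropped duplicate reads (Picard) and counted the rest per gene (HTSeq). Tools ran at default settings, per the study's methods, under which HTSeq counts by strand; whether the libraries kept strand was not given in the sources used here. A table of normalized counts was not used. The rows of reads without a gene were left out (reads in no feature were 51.9% to 53.8% of uniquely mapped ones). Counts on genes were 3647318 to 5965155 per library, which leaves members of few counts imprecise.

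Counts were fitted with edgeR 4.0.16 in R 4.3.3 (TMM, filterByExpr with a minimum count of 10, quasi-likelihood F test, Benjamini-Hochberg adjustment over all genes tested, threshold 0.05). The fits held the CMP libraries, the LSK libraries, or all 6 groups for comparisons across cell types. DESeq2 1.42.0, other scalings and filters, a replicate block, log2 total counts and left-out libraries were alternatives. The scripts were tested on simulated data. Members and lists were chosen with earlier results of these data known. Members described at most length were those called between shRNAs, then those with the smallest p to 12 in all, and the member with the most counts in each of 6 role groups. Not every library is printed for each of them. Others named with values were chosen after their values were seen. Promoters came from RefSeq and gene positions from GENCODE, on GRCm38. GAS and ISRE matches were searched separately, so that they may overlap.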

Additional observations from a re-analysis of the deposited data

Results flagged for a closer look

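Of 70 groups of 4 libraries tested, 4 held a library that lay apart from the rest (a gap to the nearest other library above Dixon's 95% critical share of the group's range). Chance alone would do this in about 1 in 20 groups. Ifit1 was highest in LSK Renilla replicate B at 21.7 CPM, against 18.6 to 19.1 in the other LSK Renilla libraries. Oas3 was highest in LSK Renilla replicate A at 54.2 CPM, against 34.1 to 37.4. Oas1a was lowest in CMP Renilla replicate B at 17.2 CPM, against 32.4 to 34.3. Trim25 was lowest in CMP Renilla replicate D at 39.5 CPM, against 60.5 to 64.6.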

How the results depend on the processing

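Counts of members called depended on the processing mainly within CMPs. DESeq2 called 1 with both Spehd hairpins, 5 with sh10, 5 with sh20 and 10 between the hairpins in CMPs, 2 with sh20 and 3 between the hairpins in LSK cells, and 14 between CMPs and LSK cells with sh10. Log2 total counts as a covariate gave 0 for sh10, sh20 and sh20 against sh10 in CMPs (0% of all genes in each), and turned Oas3 with sh20 to -0.16. All 19 libraries in 1 fit gave 1 for sh10 and 2 for sh20 in CMPs (0.962% and 4.04% of all genes). Without the filter there were 4 for sh20 in CMPs and 2 for the sh20 effect between cell types (4.04% and 1.37% of all genes), and with at least 10 counts in every library there were 4 for CMPs against LSK cells with sh20 (12.6%). The cause of these shifts was not tested. With CMP sh20 B and LSK sh10 B both left out, an alternative chosen after seeing the data, the CMP to LSK comparisons gave 16, 13 and 13.

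Leaving out 1 library at a time gave 0 to 4 members for CMP sh10, 0 to 11 for CMP sh20, 0 to 15 for sh20 against sh10, 7 to 12, 7 to 11 and 6 to 14 for CMPs against LSK cells with Renilla, sh10 and sh20, 0 to 3 for the sh20 effect between cell types, and 0 in the others. The 14 came without LSK sh10 B, and the 11, 15 and 3 without CMP sh20 C, where 20.6%, 21.9%, 23.9% and 5% of all genes were called against 14.6%, 6.17%, 6.41% and 0.584% with all libraries. Of 35 calls of single genes, 18 held in every alternative run, all between CMPs and LSK cells.

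With the replicate letter as a block, 0 members were called for sh10, sh20 and sh20 against sh10 in CMPs, and 8, 9 and 7 between CMPs and LSK cells. Of all genes, 0.0362%, 0% and 0.203% were called in the former and 17.8%, 14.7% and 11.8% in the latter. The labels do not say that letters pair samples. Libraries of 1 cell type with the same letter but another shRNA correlated at -0.129 to 0.117 in their deviations from group means (16 pairs), and those of 1 shRNA in both cell types at 0.0063 to 0.248 (9 pairs, median 0.053). With other letters these ran from -0.182 to 0.123 (43 pairs) and from -0.208 to 0.117 (22 pairs, median -0.028).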
